A study of Homo sapiens with 22 samples.

Results

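The abundant long noncoding RNAs examined here were 10 genes chosen by name: MALAT1, NEAT1, H19, KCNQ1OT1, GAS5, SNHG1, SNHG12, EPB41L4A-AS1, CYTOR and PVT1. All 10 were found among the 61487 Ensembl genes of the count table, and 9 of them belonged to the 20373 genes that passed a filter on low counts (more than 5 reads in at least 3 libraries). H19 did not pass it. The RNA came from Caco-2, an established line from a human colorectal adenocarcinoma that can take on features of the small intestinal epithelium. The cells were labelled wild type and undifferentiated and were exposed for 48 h to a treatment that made up 10% of the medium. The treatments were PBS as vehicle (PBS, n = 4), faecal water of untreated mice (FWctl, n = 7), faecal water that those mice gave while on antibiotics (FWatb, n = 7), and the antibiotic cocktail of neomycin, vancomycin and meropenem itself (ATB, n = 4). The design asked what soluble faecal material does to transcription in intestinal cells, and whether antibiotic treatment of the mice alters that. All groups, the controls included, were grown in the same medium with serum and an antibiotic-antimycotic supplement. All libraries are from a single line, and nothing in the labels says that replicates came from separate cultures, so that p-values measure the spread between these libraries.

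Total counts ranged from 7118302 to 18726967 per library. FWctl replicate 1 stood apart on the first principal component (9.12, against 36.1 to 41.0 for the other FWctl libraries and -19.1 to -13.4 for all other groups). It is shown separately, since the study excluded 1 FWctl library that it did not name. All tests leave it out, except the fits said to cover all 22 libraries, so that FWctl otherwise has n = 6 below. Genes of the ribosomal DNA repeat on chromosome 21 took more than 0.5% of the counts in 14 libraries (high-rDNA) and less in the other 8 (low-rDNA), and no label names this split. PBS, FWctl and ATB held libraries of both sets, whereas all 7 FWatb libraries were high-rDNA. The low-rDNA libraries were also the deepest, with at least 15604065 counts against at most 12248577 in the high-rDNA set. The epithelial genes VIL1, CDX2, EPCAM, CDH1, KRT8, KRT18 and KRT19 were each counted at least 575 times in the 21 tested libraries, while LGALS4 stayed at 3 to 29 reads. Of 8 fibroblast, leukocyte and endothelial markers, DCN, PTPRC and COL1A2 stayed at 0 to 2 reads. COL1A1 was counted 65 to 132 times under PBS and 4 to 23 times under FWctl, LYZ 87 to 191 and 29 to 69 times, and PECAM1 54 to 96 and 15 to 69 times. VWF went the other way, with 10 to 17 reads under PBS and 18 to 68 under FWctl, and CD3E had 2 to 13 and 0 to 7. Summed, the 8 markers ranged from 258.5 to 293 normalized counts under PBS, 109.7 to 155 under FWctl, 263 to 348 under FWatb and 288 to 379.5 under ATB. Their part in the results was not tested. The enterocyte genes SI, ALPI and LCT were detected in every group, at levels that differed. They averaged 497, 231 and 56.3 normalized counts under PBS and 201, 301.5 and 14.8 under FWctl. Under FWatb the averages were 256, 246 and 66.1, and under ATB 839, 243 and 61.7. The part of these genes in the results was not tested either.

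Long noncoding RNAs are transcripts that are not translated into a long protein, and those examined here fall into different classes. MALAT1 and NEAT1 stay in the nucleus: MALAT1 gathers in nuclear speckles, which hold splicing factors, and NEAT1 is the scaffold of paraspeckles, bodies built with proteins such as NONO and SFPQ. H19 and KCNQ1OT1 are transcribed from imprinted domains, H19 from the maternal and KCNQ1OT1 from the paternal copy. GAS5, SNHG1, SNHG12 and EPB41L4A-AS1 are hosts of small nucleolar RNAs (snoRNAs): the snoRNAs are cut from their introns and guide modification of ribosomal RNA, while the spliced exons are generally turned over by nonsense-mediated decay in a way that depends on translation. GAS5 was named for its accumulation in growth-arrested cells and belongs to the 5'-terminal oligopyrimidine (TOP) genes, whose transcripts start with a run of pyrimidines. CYTOR is a cytoplasmic transcript with a near-identical copy, MIR4435-2HG, and PVT1 lies next to MYC and is often amplified with it in tumours.

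The starts of the 4 snoRNA hosts are shown because a pyrimidine run at the first base defines the TOP class to which host genes are often assigned. The sequences are the first 50 transcribed bases in RefSeq (GRCh38.p14), 5' to 3', and capitals mark runs of at least 6 pyrimidines (C or T).
GAS5 (chr1:173868996-173869045, minus strand): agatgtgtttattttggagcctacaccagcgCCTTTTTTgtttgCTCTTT
SNHG1 (chr11:62855836-62855885, minus strand): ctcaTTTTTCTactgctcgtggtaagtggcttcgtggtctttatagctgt
SNHG12 (chr1:28581824-28581873, minus strand): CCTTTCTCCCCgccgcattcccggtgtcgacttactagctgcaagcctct
EPB41L4A-AS1 (chr5:112160526-112160575, plus strand): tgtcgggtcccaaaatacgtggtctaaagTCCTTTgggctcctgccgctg
SNHG12 had its run of 11 pyrimidines at the annotated first base, whereas the runs of GAS5 (8 and 6), SNHG1 (7) and EPB41L4A-AS1 (6) lay further in. A run of at least 6 pyrimidines anywhere in the first 50 bases occurred in 41.1% of 35116 RefSeq start windows and in 5 of the 8 windows found for 7 members. A C followed by at least 4 pyrimidines exactly at the start occurred in 4.07% of all windows and in 1 of the 8. Annotated first bases differ between resources, and the RefSeq starts of GAS5, SNHG1 and SNHG12 are not those of GENCODE, so that these windows do not settle where transcription begins in Caco-2 cells. The motifs CACGTG (E-box, 7.26% of all windows) and TGATGNAAN (ATF4/CEBP, 3.61%) were searched on both strands of the 300-base windows and were found in 0 of the 8. TGACNNNGC (antioxidant, 13.3%) and TNGCGTG (AHR, 5.51%) each occurred in 1 of the 8, a window of MALAT1, and TGANTCA (AP-1, 7.71%) in 1, that of CYTOR. A match is a description of letters, not of a bound site.

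The genes lie as follows in GENCODE (GRCh38). NEAT1 (chr11:65422774-65445540) and MALAT1 (chr11:65497640-65508073) are on the plus strand of chromosome 11, with 52100 bases from the end of the first to the start of the second. H19 (chr11:1995166-2004552) and KCNQ1OT1 (chr11:2597308-2700003) are on its minus strand, KCNQ1OT1 within KCNQ1, which is on the opposite strand. SNHG1 (chr11:62851978-62855953, minus strand) starts 51 bases from SLC3A2, which is transcribed the other way. GAS5 (chr1:173858559-173868882) and SNHG12 (chr1:28578538-28583132) are on the minus strand of chromosome 1, EPB41L4A-AS1 (chr5:112160526-112164818) on the plus strand of chromosome 5 and CYTOR (chr2:87454781-87636740) on the plus strand of chromosome 2. PVT1 is on chromosome 8. Antisense annotation covers 83.7% of the exonic bases of MALAT1, chiefly TALAM1, which was not analysed here, and for EPB41L4A-AS1 54.3% of exonic bases overlap other genes, chiefly the 3' part of EPB41L4A. The kit marks strand but the strand setting of the counting was not given in the sources used here, so reads of MALAT1 and of an antisense transcript may not be separated. EPB41L4A itself had 1 to 16 reads per library, against 207 to 1530 for EPB41L4A-AS1.

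Under PBS the members spanned a wide range of levels, and per kilobase of exon MALAT1 was the highest, at 1642 ± 251 normalized counts (SD, n = 4). GAS5 followed with 731 ± 75.1, SNHG1 with 265 ± 11.4, NEAT1 with 165 ± 47.2 and EPB41L4A-AS1 with 105.1 ± 8.11 normalized counts per kilobase. KCNQ1OT1 (34.6 ± 6.67) and SNHG12 (31.4 ± 3.86) did not differ beyond their spread, and PVT1 (4.12 ± 0.567) and CYTOR (2.26 ± 0.323) were far lower. The exon length was the union over all annotated transcripts. For GAS5 this is 4932 bases over 91 transcripts, and for SNHG1 1 block of 3976 bases, the whole gene. Bases that are intronic in some transcripts thus count as exon, and the order between genes depends on the annotation. Normalized counts here are counts divided by TMM-scaled library sizes and brought to a common depth. They are relative measures, and in bulk RNA fewer cells of a kind and less RNA per cell cannot be told apart. Together the 10 genes took 0.157% to 0.386% of all counts.

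H19 was close to the detection limit in all conditions. It had 1, 2, 2 and 7 raw reads in PBS replicates 1 to 4, 0 to 3 in the FWctl libraries, 1 to 6 in FWatb, and 1, 3, 5 and 3 in ATB replicates 1 to 4. FWctl replicates 3 and 7 had 0 reads, which at 3 counts allows up to 0.171 and 0.347 CPM (counts scaled to library size, counting error only). H19 was thus chosen by name but was not abundant in these cells, and its differences between conditions were not tested in the main model. The genes of its domain were also low, with IGF2, the growth factor gene that shares its imprinting control, at 21.2 ± 4.34 normalized counts under PBS.

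FWctl against PBS asked what faecal water of untreated mice changed. Of the 9 tested members, 8 passed edgeR's quasi-likelihood test at an adjusted p of 0.05, 6 higher and 2 lower. In this comparison 46.4% of all tested genes passed (24.3% higher, 22.1% lower), so that passing was common. Their median log2 fold change was 0.72, against 0.02 over all tested genes. The 4 snoRNA hosts rose with no overlap between the groups, MALAT1 and PVT1 rose, NEAT1 and KCNQ1OT1 fell, and CYTOR did not pass.

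**Figure D1:**
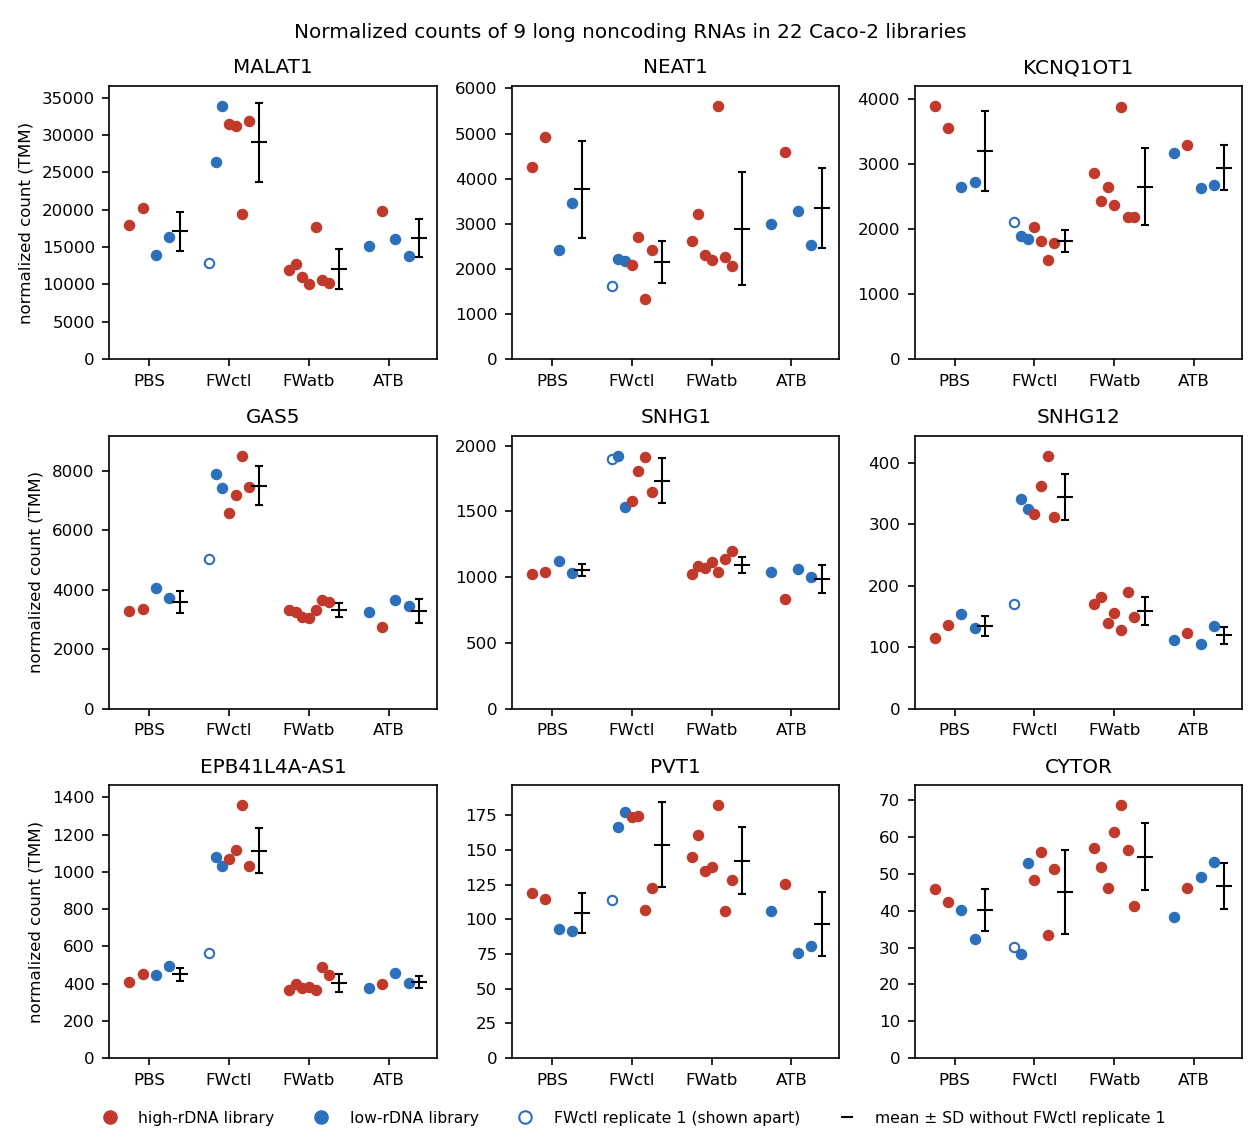
Normalized counts (vertical axes, linear from 0) of 9 long noncoding RNAs in each of the 22 libraries, by condition, with the mean and SD beside them. Red points are high-rDNA and blue points low-rDNA libraries, the open point is FWctl replicate 1, and the 6 other FWctl libraries of GAS5 (6583 to 8509) lie above all libraries of the other conditions.

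GAS5 had the highest normalized counts of the 4 hosts. They were 3277, 3342, 4074 and 3724 in PBS replicates 1 to 4, and ranged from 6583 through a median of 7439 to 8509 in FWctl. The lowest FWctl library was thus well above the highest PBS library. The mean rose from 3604 ± 370 (SD, n = 4) to 7506 ± 650.1 (n = 6), 2.08-fold, with a log2 fold change of 1.06 ± 0.086 (SE) and an adjusted p of 1.11e-13 (edgeR).

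EPB41L4A-AS1, the host of SNORA13, had 409, 454, 448 and 494 normalized counts under PBS and 1031, 1074 and 1356 as lowest, median and highest values in FWctl. The groups did not overlap, and the increase was 2.46-fold (log2 1.30 ± 0.088, adjusted p = 5.57e-16, edgeR). SNHG12, which carries several H/ACA and C/D snoRNAs, went from 114, 136, 154 and 132 under PBS to 312, 333 and 412 in FWctl. Here too each FWctl library exceeded each PBS library, with a 2.55-fold rise (log2 1.35 ± 0.109, adjusted p = 1.07e-13, edgeR). SNHG1, host of a cluster of C/D snoRNAs, rose less. It had 1024, 1037, 1121 and 1033 normalized counts under PBS and 1536, 1725 and 1922 in FWctl, again without overlap. The increase was 1.64-fold (log2 0.72 ± 0.077, adjusted p = 2.28e-10, edgeR). Of the groups of 9 tested members, 5 did not overlap, against 33.7% of all tested genes. The 13 snoRNA genes annotated inside SNHG1, SNHG12 and EPB41L4A-AS1 gave no second reading, since only SNORD99 passed the filter, at a mean of 3.08 normalized counts.

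MALAT1 had 18010, 20180, 13990 and 16360 normalized counts under PBS and ranged from 19460 through 31340 to 33850 in FWctl. Only FWctl replicate 7 fell into the PBS range, and the 5 others lay at 26330 or above. The rise was 1.69-fold (log2 0.76 ± 0.138, adjusted p = 1.24e-05, edgeR). PVT1 had 119, 115, 93.2 and 91.4 under PBS and 107, 170.2 and 177 in FWctl. The groups overlapped through FWctl replicate 7, and the rise (log2 0.585 ± 0.144, adjusted p = 0.000823, edgeR) was 0.27 with an adjusted p of 0.275 when only high-rDNA libraries were compared.

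NEAT1, its neighbour on chromosome 11, went the other way. It had 4248, 4913, 2412 and 3467 normalized counts under PBS and 1320, 2197 and 2701 in FWctl. FWctl replicates 6 and 8 lay just above the lowest PBS library (2701 and 2427 against 2412), and the other 4 lay below it. The level fell to 0.574-fold (log2 -0.80 ± 0.192, adjusted p = 0.000612, edgeR). KCNQ1OT1, which silences genes of its imprinted domain in cis, had 3889, 3560, 2640 and 2723 under PBS and 1519, 1832 and 2029 in FWctl. The groups did not overlap, and the fall was to 0.5675-fold (log2 -0.82 ± 0.114, adjusted p = 1.04e-07, edgeR). CYTOR had 45.7, 42.4, 40.1 and 32.3 under PBS and 28.3, 49.8 and 55.8 in FWctl. Its log2 difference of 0.17 had a 95% interval of -0.20 to 0.53 (adjusted p = 0.505, edgeR), and since reads can be split with its copy MIR4435-2HG, its values are uncertain. MIR4435-2HG had 119.7 ± 21.3 normalized counts under PBS and 123.6 ± 30.1 in FWctl.

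**Figure D2:**
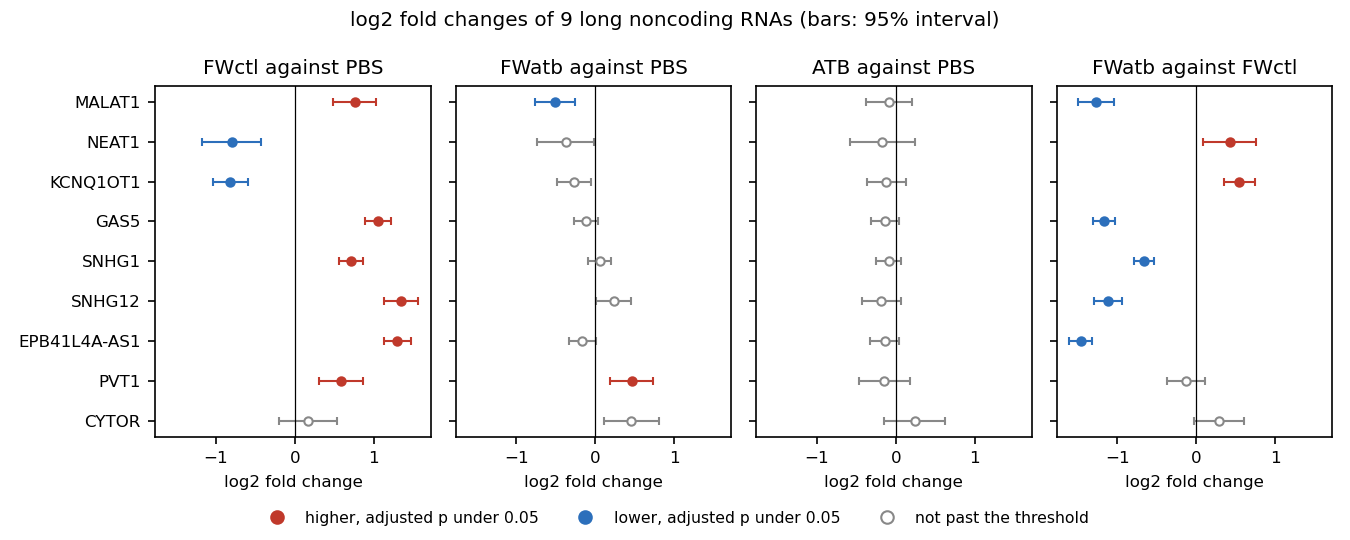
log2 fold changes (horizontal axes) of the 9 members in each of the 4 comparisons, with 95% intervals. Filled red and blue points passed an adjusted p of 0.05 as higher or lower, open points did not, and no member passed in ATB against PBS.

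FWatb against PBS asked what remained with faecal water of antibiotic-treated mice. Of 9 members, 2 passed, PVT1 higher and MALAT1 lower, against 9.99% of all tested genes (6.04% higher, 3.95% lower). No member's groups were free of overlap (6.86% of all genes). MALAT1 had 10040, 10970 and 17660 normalized counts as lowest, median and highest values in FWatb. Leaving out FWatb replicate 6, the highest, the 6 others lay at 12730 or below, under all 4 PBS libraries. The level fell to 0.701-fold (log2 -0.51 ± 0.129, adjusted p = 0.00673, edgeR), and without PBS replicate 2 the adjusted p was 0.0613. PVT1 ranged from 106 through 137.5 to 182 and rose 1.38-fold (log2 0.46 ± 0.141, adjusted p = 0.0299, edgeR), a call that was lost when PBS replicate 3 or 4 or FWatb replicate 2 or 6 was left out (adjusted p 0.108, 0.128, 0.0608 and 0.0564).

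The snoRNA hosts under FWatb had levels near those under PBS. GAS5 ranged from 3055 through 3303 to 3661 normalized counts, and its log2 difference from PBS was -0.12 with a 95% interval of -0.28 to 0.04 (adjusted p = 0.427, edgeR). SNHG1 (1022, 1085 and 1198) differed by 0.06 (-0.09 to 0.20), and SNHG12 (127, 156 and 189.6) by 0.23 (0.015 to 0.449, adjusted p = 0.2, edgeR). EPB41L4A-AS1 (364, 383 and 488) differed by -0.16 (-0.33 to 0.004). These intervals exclude changes of the size measured under FWctl for these genes, but the fit does not show that the levels were the same.

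NEAT1 had 2066, 2298 and 5606 normalized counts in FWatb, and KCNQ1OT1 2185, 2436 and 3873. In both, the highest value was replicate 6. Neither passed against PBS (log2 -0.38, adjusted p = 0.223, and -0.27, adjusted p = 0.122, edgeR). Without FWatb replicate 6 both did, at log2 -0.62 ± 0.143 (adjusted p = 0.0021) and -0.39 ± 0.091 (adjusted p = 0.00277). With the replicate number as a block, over the 4 numbers that both groups hold, 5 members passed. That fit also leaves out FWatb replicates 6, 7 and 8, which have no PBS library of the same number. What the block changed and what leaving out these libraries changed cannot be told apart in it. Of all tested genes 3229 of 18002 passed in that fit, against 2035 of 20373 in the main model. The members added were NEAT1 (log2 -0.51, adjusted p = 5.96e-06, edgeR), KCNQ1OT1 (log2 -0.29, adjusted p = 0.00286) and EPB41L4A-AS1 (log2 -0.24, adjusted p = 0.0241). CYTOR, at 41.4, 56.5 and 68.5, differed by 0.46 (0.11 to 0.81, adjusted p = 0.0974, edgeR).

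ATB against PBS asked whether the antibiotics themselves acted on the cells. No member passed edgeR's test, and 0 had an unadjusted p under 0.05. DESeq2 also called 0 members. Of all tested genes 0.285% passed (0.255% higher, 0.0295% lower). No member's groups were free of overlap, against 5.58% of all genes. GAS5 had 3260, 2747, 3664 and 3456 normalized counts in ATB replicates 1 to 4, within or below the PBS range of 3277 to 4074. MALAT1 had 15140, 19800, 16080 and 13790, NEAT1 3002, 4594, 3283 and 2519, and KCNQ1OT1 3175, 3298, 2628 and 2675, all with broad overlap with PBS. The log2 differences of the 9 members lay between -0.18 (SNHG12, 95% interval -0.43 to 0.06) and 0.24 (CYTOR, -0.15 to 0.63). For the 8 members called under FWctl the intervals exclude the change measured there. That of NEAT1 (-0.59 to 0.245) still overlaps its interval under FWctl (-1.18 to -0.42).

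FWatb against FWctl asked for the difference that antibiotic treatment of the mice made. It shares its FWctl and FWatb libraries with the comparisons above, so its values follow in part from them. Of 9 members, 7 passed, 5 lower and 2 higher, against 48.8% of all tested genes (25.4% lower, 23.4% higher). With an absolute log2 fold change above 1 as well, as the study asked for this comparison, MALAT1, GAS5, SNHG12 and EPB41L4A-AS1 remained, against 12.7% of all genes. The groups of 6 members did not overlap (25.5% of all genes). EPB41L4A-AS1 fell to 0.363-fold (log2 -1.46 ± 0.075, adjusted p = 7.6e-20, edgeR), its highest FWatb library (488) lying below its lowest FWctl library (1031). MALAT1 fell to 0.414-fold (log2 -1.27 ± 0.117, adjusted p = 3.13e-12, edgeR), with the highest FWatb library at 17660 and the lowest FWctl library at 19460. GAS5 and SNHG12 fell to 0.443-fold and 0.461-fold (log2 -1.175 ± 0.072 and -1.12 ± 0.093), and SNHG1 to 0.632-fold (log2 -0.66 ± 0.065). None of these overlapped between the groups, so that each was lower in 6 of 6 same-numbered FWatb and FWctl libraries whatever the pairing.

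KCNQ1OT1 rose 1.46-fold from FWctl to FWatb (log2 0.55 ± 0.101, adjusted p = 1.5e-05, edgeR). Its groups did not overlap, so it was also higher in 6 of 6 same-numbered libraries. NEAT1 rose 1.34-fold (log2 0.42 ± 0.17, adjusted p = 0.0355, edgeR), higher in 5 of 6. The NEAT1 call was lost without FWctl replicate 2 (adjusted p = 0.0509), FWctl replicate 7 (0.0756) or FWatb replicate 6 (log2 0.20, adjusted p = 0.217), and with DESeq2 (adjusted p = 0.126). PVT1 (log2 -0.125, 95% interval -0.37 to 0.12) and CYTOR (0.29, -0.02 to 0.61) did not pass.

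The members were next set against the library sets. In a model with the condition and the set, 0 of 9 members passed edgeR's test for the set, and DESeq2 called 0, while 0.054% of all tested genes passed (0.0442% higher, 0.00982% lower). NEAT1 had an unadjusted p of 0.0341 (log2 0.35, high minus low) and GAS5 of 0.0143 (log2 -0.17) in edgeR's quasi-likelihood test. They were the only members under an unadjusted 0.05, as were 1583 of all genes. NEAT1 averaged 4580 normalized counts in the 2 high-rDNA and 2939 in the 2 low-rDNA libraries of PBS, and 4594 in the high-rDNA library of ATB against 2935 in its 3 low-rDNA libraries. In FWctl the averages were 2133 and 2197. KCNQ1OT1 in PBS averaged 3724 in high-rDNA and 2682 in low-rDNA libraries, and MALAT1 19100 and 15180, while GAS5 averaged 3309 and 3899. With so few libraries in each set, the part of the set, and of the depth that goes with it, in these values was not tested further.

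Of the 8 members called under FWctl, 7 also passed within each set, and PVT1 passed among low-rDNA libraries only. Of all tested genes, 7095 of 18286 passed among high-rDNA libraries and 7444 of 19325 among low-rDNA libraries. Among high-rDNA libraries only, the log2 fold changes from PBS to FWctl were 1.14 for GAS5, 0.73 for SNHG1, 1.465 for SNHG12 and 1.38 for EPB41L4A-AS1, and among low-rDNA libraries only they were 0.93, 0.64, 1.17 and 1.12. MALAT1 rose by 0.55 (adjusted p = 0.0108) and 0.94 (adjusted p = 8.68e-07). NEAT1 was at -1.13 (adjusted p = 0.000264) and -0.47 (adjusted p = 0.00445), and KCNQ1OT1 at -1.08 (adjusted p = 2.36e-07) and -0.57 (adjusted p = 5.34e-05). PVT1 was at 0.27 (adjusted p = 0.275) and 0.85 (adjusted p = 0.000133). Whether the 2 sets differ in these changes was not tested. Since FWatb had no low-rDNA library, its comparisons were repeated among high-rDNA libraries. The log2 fold changes from FWctl were then -1.14 for GAS5, -1.48 for EPB41L4A-AS1 and -1.22 for MALAT1. In that comparison 7 members passed, as did 8649 of 18286 tested genes. Against PBS 2 members passed among high-rDNA libraries as well (1127 of 18286 tested genes), but not the same pair. MALAT1 passed again (log2 -0.67, adjusted p = 0.00542), PVT1 did not (log2 0.28, adjusted p = 0.391), and KCNQ1OT1 did (log2 -0.49, adjusted p = 0.0216).

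FWctl replicate 1, the library shown apart, took an intermediate position for the hosts. GAS5 had 5038 normalized counts there, between the highest PBS (4074) and the lowest other FWctl library (6583), and EPB41L4A-AS1 had 562, between 494 and 1031. SNHG12, at 171, lay between 154 and 312, and inside the FWatb range. SNHG1, at 1899, lay within the FWctl range. MALAT1, at 12820, was below all PBS and all other FWctl libraries, NEAT1 (1626) was within the FWctl range, and KCNQ1OT1 (2104) was just above it. PVT1 (114) and CYTOR (30.1) were within it as well.

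How the members varied together differed across and within conditions. Across 21 libraries, which share the 4 conditions, depth and library sets, GAS5, SNHG1, SNHG12 and EPB41L4A-AS1 had Pearson's r of 0.93 to 0.982 with each other on log2 normalized counts. After each condition's mean was subtracted, their r ranged from 0.274 (SNHG1 and SNHG12) to 0.725 (GAS5 and SNHG1). MALAT1 and NEAT1 had an r of 0.015. Within conditions, in the same way, it was 0.939, and 0.909 without FWatb replicate 6. NEAT1 and KCNQ1OT1 had r = 0.847 across and 0.806 within conditions. MALAT1 and GAS5, with r = 0.761 across conditions, had -0.563 within them, and MALAT1 and SNHG1 had 0.639 and -0.695. MALAT1 and NEAT1 thus moved apart between PBS and FWctl but deviated together among libraries of a condition, as in FWctl replicate 7 (log2 deviations from the mean of the other libraries of -0.66 and -0.81) and FWatb replicate 6 (0.68 and 1.22). These correlations are descriptions over libraries that are not all independent, and no p is given.

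**Figure D3:**
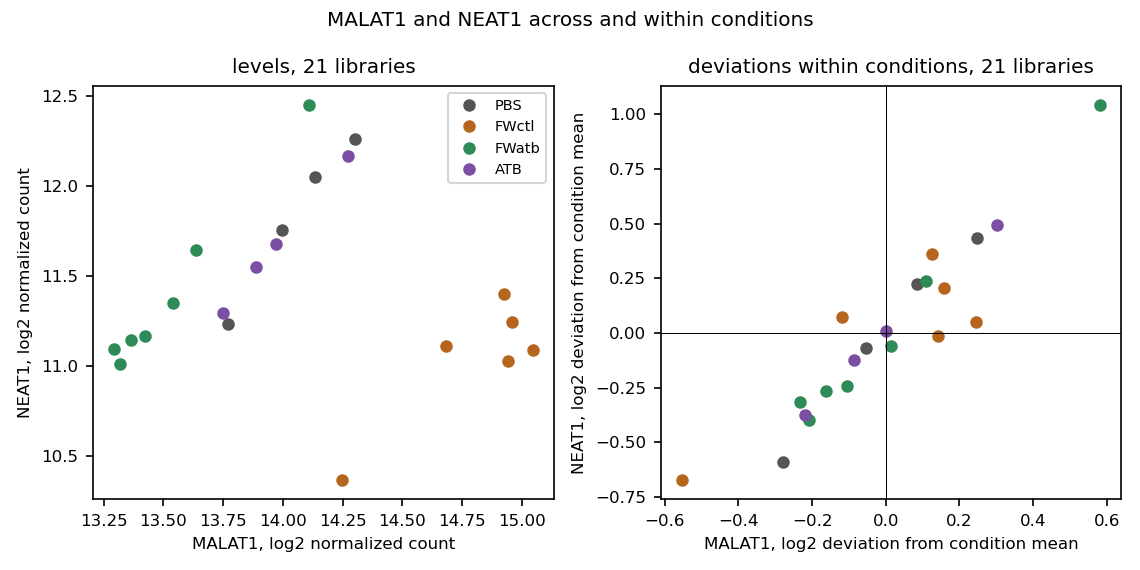
NEAT1 (vertical) against MALAT1 (horizontal) in 21 libraries coloured by condition, as log2 normalized counts (left) and as log2 deviations from the condition mean (right). The FWctl libraries stand apart on the left, while on the right the deviations of all conditions follow a common line (r = 0.939).

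The gene outside the member list with the pattern most like each member was sought over 21 libraries among 9305 genes averaging 100 normalized counts or more, by Pearson's r of log2 normalized counts. For EPB41L4A-AS1 it was SNHG29 (r = 0.993), itself a snoRNA host, for GAS5 ANAPC16 (0.989), for SNHG1 BOD1 (0.975) and for SNHG12 SHMT2 (0.972), a mitochondrial enzyme of serine and glycine metabolism. For MALAT1 it was the long noncoding RNA TPT1-AS1 (0.976), for KCNQ1OT1 the histone methyltransferase gene NSD3 (0.939) and for NEAT1 TAB3 (0.904). PVT1 was closest to MDN1 (0.867), which acts in ribosome assembly, and CYTOR to ZNRF2 (0.691), a weaker likeness than for the others. Near ties occurred: UBE2D2 and QRSL1 also had 0.975 with SNHG1, and SNHG8 had 0.988 with GAS5. These r span conditions between which many genes changed (46.4% of all tested genes in FWctl against PBS), and none was computed within conditions. A gene named here is the highest of many, and a specific link to the member was not tested.

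Other snoRNA hosts were measured to set the 4 members in their class. Of 22 other host genes, 10 rose and 2 fell from PBS to FWctl, against 24.3% and 22.1% of all tested genes, with a median log2 fold change of 0.29 against 0.02 over all genes. SNHG29 (log2 1.255 ± 0.085, adjusted p = 5.22e-16) and SNHG8 (1.23 ± 0.093, adjusted p = 1.52e-14) rose by amounts between those of GAS5 and EPB41L4A-AS1, SNHG15 rose by 0.805 ± 0.091 (adjusted p = 9.09e-10), and the genes that fell, named after their values were seen, were SNHG7 (log2 -0.74) and SNHG18 (log2 -0.95, at a mean of 12.0 normalized counts). From FWctl to FWatb 8 of the 22 fell and 2 rose, against 25.4% and 23.4% of all tested genes. SNHG29 fell by 1.435, SNHG8 by 1.42 and SNHG6 by 0.81 on the log2 scale. Between FWatb and PBS 5 were higher and 4 lower (6.04% and 3.95% of all tested genes), among them SNHG4 (log2 0.69, adjusted p = 1.41e-06), SNHG17 (0.62, adjusted p = 1.03e-05) and SNHG15 (0.57, adjusted p = 2.3e-05), and between ATB and PBS none of the 22 passed (0.285% of all tested genes).

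**Figure D4:**
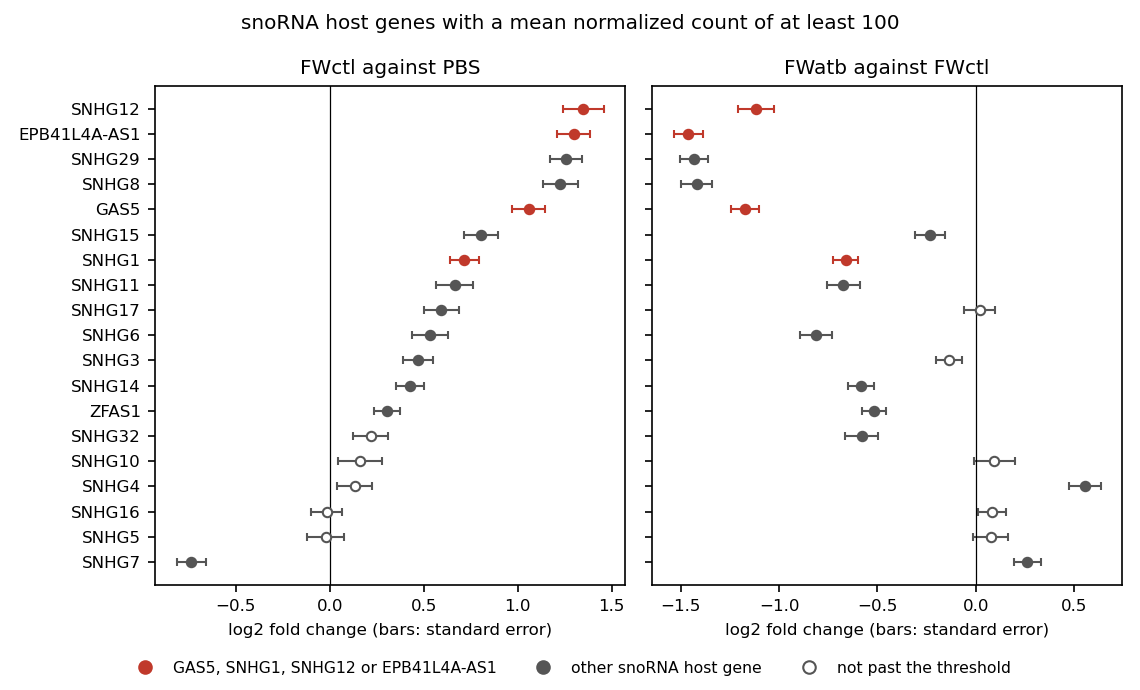
log2 fold changes (horizontal axes, bars are standard errors) of the 19 snoRNA host genes that averaged 100 normalized counts or more, in FWctl against PBS (left) and FWatb against FWctl (right). The 4 members are in red, open points did not pass an adjusted p of 0.05, and SNHG29 and SNHG8 lie among the members in both panels while SNHG7 lies on the other side of 0.

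Host exons are generally degraded by nonsense-mediated decay, so its factors were described beside them. Of 14 decay and exon junction factors, 9 rose and 0 fell from PBS to FWctl, against 24.3% and 22.1% of all tested genes, with a median log2 fold change of 0.56 against 0.02 over all genes. UPF3B, which links exon junctions to decay, rose by 1.07 ± 0.111 (adjusted p = 1.09e-10), and the exon junction core genes EIF4A3 and RBM8A by 0.90 ± 0.087 and 0.875 ± 0.1 (adjusted p 1.56e-11 and 1.2e-09). From FWctl to FWatb 9 of the 14 fell and 1 rose, against 25.4% and 23.4% of all tested genes, among them UPF3B by 1.00, CASC3 by 0.82 and RBM8A by 0.70 on the log2 scale. Only EIF4A3 was called between FWatb and PBS (log2 0.36, adjusted p = 0.00397), and none between ATB and PBS. All adjusted p-values of listed genes are from edgeR.

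Paraspeckle and speckle proteins were described beside NEAT1 and MALAT1. Of 14 paraspeckle protein genes 8 rose and 2 fell from PBS to FWctl, against 24.3% and 22.1% of all tested genes. SFPQ rose by 0.85 ± 0.066 (adjusted p = 3.68e-14), the RNA-binding protein genes DAZAP1 by 0.75 ± 0.081 and HNRNPH3 by 0.68 ± 0.106. From FWctl to FWatb 7 fell and 3 rose (25.4% and 23.4% of all tested genes), with HNRNPH3 at -0.70, SFPQ at -0.585 and NONO at -0.56. Of 13 speckle genes 6 rose and 2 fell under FWctl, set against the same shares, among them SON, a speckle core protein (0.885 ± 0.104, adjusted p = 2.18e-09), METTL16, an RNA methyltransferase known to bind MALAT1 (0.87 ± 0.081, adjusted p = 5.49e-12), and the splicing regulator RNPS1 (0.84 ± 0.081). From FWctl to FWatb 6 of the 13 fell and 4 rose, with SON at -0.80, METTL16 at -0.77 and the splicing factor SRSF2 at 0.72. Between FWatb and PBS 3 of 14 paraspeckle genes were higher, and of the speckle genes 3 were higher and 2 lower, against 6.04% higher and 3.95% lower of all tested genes.

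Of 17 tested other long noncoding RNAs, 3 rose and 5 fell under FWctl, with a median log2 fold change of -0.125. Of all tested genes 46.4% passed in this comparison, so that 8 of 17 is close to the background. LINC00511 rose by 1.43 ± 0.088 (adjusted p = 2.6e-17) and HULC by 0.74 ± 0.145, while DANCR, a snoRNA-hosting transcript kept outside the host list, fell by 0.61 on the log2 scale. From FWctl to FWatb 5 rose and 5 fell (23.4% and 25.4% of all tested genes), LINC00511 at -0.92, HULC at -0.83 and MIR17HG, the precursor of a microRNA cluster, at 0.71. Between FWatb and PBS 2 were higher and 2 lower, against 6.04% and 3.95% of all tested genes. LINC00511 at 0.51 and MIR17HG at 0.585 were the higher ones.

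Neighbouring genes were read for each member, and 3 of 12 rose under FWctl, near the 24.3% of all tested genes. SLC3A2, the heavy chain of amino acid exchangers that starts 51 bases from SNHG1, had 1776 ± 106 normalized counts under PBS (n = 4), 10350 ± 1397 in FWctl (n = 6), 1988 ± 199 in FWatb (n = 7) and 1870 ± 64.0 in ATB (n = 4). It rose by 2.54 ± 0.095 on the log2 scale from PBS (adjusted p = 3.17e-24) and fell by 2.38 from FWctl to FWatb (adjusted p = 9.81e-27), a larger change than that of SNHG1 in both. ZBTB37 is on the opposite strand to GAS5 and starts inside its annotated span, 800 bases from the start of GAS5. This neighbour rose by 0.78 ± 0.11 under FWctl (adjusted p = 1.18e-07) and fell by 0.72 from FWctl to FWatb. MYC, the neighbour of PVT1, rose by 0.57 ± 0.092 under FWctl and by 0.96 ± 0.091 under FWatb (adjusted p 1.96e-06 and 2.51e-09), with 764 ± 30.8 normalized counts under PBS and 614 ± 66.3 under ATB. KCNQ1, which overlaps KCNQ1OT1, had 0 to 10 reads per library, and CDKN1C, an imprinted gene of the same domain, 4 to 39. SLC22A18, also of this domain, had 286 ± 14.1 normalized counts under PBS and 276 ± 28.6 in FWctl and did not pass (log2 -0.06 ± 0.09, adjusted p = 0.649). TRNAU1AP near SNHG12 had 88.2 ± 20.6 normalized counts under PBS and 83.1 ± 10.5 in FWctl.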

How the data were processed

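Total RNA of the exposed cells was sequenced from stranded libraries depleted of ribosomal RNA. Per the labels and the methods of the study, the authors trimmed reads with Trimmomatic 0.38 and aligned them to GRCh38 with HISAT2 2.1.0. Reads per gene of Ensembl 105 were then summed with featureCounts (Subread 2.0.0). The deposited table holds raw counts of 61487 genes in 22 libraries, neither normalized nor filtered. Symbols and positions came from GENCODE 44, where 61369 identifiers were found and 42045 had a symbol.

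Counts were fitted with edgeR 4.0.16 (R 4.3.3, TMM, quasi-likelihood test, Benjamini-Hochberg over 20373 genes) in 1 model of the 4 conditions over 21 libraries. Intervals of log2 fold changes are at 95%. The study used DESeq2, run here as an alternative (1.42.0). The fit of FWatb against FWctl was run on simulated counts of 19723 genes, with 100 changed by 1 and 100 by 2 log2 units. All changed genes were recovered, with 12 false calls. Far fewer genes were changed there than were called in the data (9942), so it does not show how the fit behaves with many changed genes. Correlations used log2 normalized counts with a pseudocount of 1. All replicate pairs differed beyond sampling noise.

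The members and lists were chosen with earlier results of these data known. All members are named, and from each list and comparison at most 3 called genes, those of largest change that average 100 normalized counts or more, plus neighbours. The host genes that fell under FWctl were named after their values were seen. The deviations of same-numbered FWctl and FWatb libraries correlated at 0.185 on average (-0.036 to 0.448 over 6 pairs). Those of same-numbered ATB and PBS libraries, which received no mouse material, correlated at 0.28 (0.094 to 0.44 over 4 pairs). Such a correlation thus cannot show that a number marks a mouse, and what the numbers share was not tested. The study states that the same mice gave both waters, and that a number marks a mouse is inferred. Alternatives were other normalizations and filters, DESeq2, all 22 libraries, the replicate block, the library set, each set alone and each library left out. The low-rDNA fits of FWctl and ATB against PBS were added after the data were seen.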

Additional observations from a re-analysis of the deposited data

Results flagged for a closer look

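Among 36 combinations of a member and a condition, 5 had a library that stood far from the others, where chance gives about 1.8. The combinations are not independent, since members varied together within conditions and several flags fell on the same library. The 5 are thus not separate events. FWatb replicate 6 was the highest for MALAT1 (17660 normalized counts, next 12730), NEAT1 (5606, next 3206) and KCNQ1OT1 (3873, next 2868). The median log2 deviation of that library from the other FWatb libraries was 0.187 over 188 long noncoding RNAs and -0.097 over 9055 protein-coding genes, and in the other FWatb libraries the former was -0.071 to 0.032. SNHG1 was high in PBS replicate 3 (1121, next 1037), and EPB41L4A-AS1 in FWctl replicate 7 (1356, next 1117).

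FWctl replicate 1, left out of the main model, was above every PBS library for 4 of 9 members. The share of all tested genes for which this held was not determined, so the count says nothing particular about the members. These were GAS5 (5038, highest PBS 4074), SNHG1 (1899, highest PBS 1121), SNHG12 (171.1, highest PBS 154.4) and EPB41L4A-AS1 (562.2, highest PBS 493.8).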

How the results depend on the processing

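The 8 calls of FWctl against PBS were also 8 in every alternative except among high-rDNA libraries only, where PVT1 was lost (7), and no member passed for ATB against PBS in any. For FWatb against PBS the count of members was 2, with 4 under library size alone or without a filter and 0 over all 22 libraries. It was 5 with the replicate block, which also leaves out FWatb replicates 6 to 8, and 1 to 3 when a library was left out. For FWatb against FWctl it was 7, with 4 when the log2 fold change had to exceed 1 in size as well 6 with DESeq2 or the set as a term, 8 under library size alone or over all 22 libraries, where CYTOR passed (adjusted p 0.0449 and 0.0475), and 6 to 7 when a library was left out, and the replicate block changed no call there. For the library set it was 0, and 1 without a filter (NEAT1, log2 0.31). Over all 22 libraries MALAT1 and PVT1 had adjusted p-values of 0.0625 and 0.0746 in FWatb against PBS. With the set as a term KCNQ1OT1 passed there (adjusted p = 0.0488) and PVT1 did not (0.0868), and NEAT1 did not in FWatb against FWctl (0.165). The causes were not tested. Signs that turned all belonged to differences that did not pass. They were GAS5 in FWatb against PBS (0.005) and PVT1 in FWatb against FWctl (0.005) among high-rDNA libraries, KCNQ1OT1 in ATB against PBS among low-rDNA libraries (0.061), and set terms of EPB41L4A-AS1 (library size alone -0.043, no filter -0.032), SNHG12 (stricter filter 0.004, all 22 libraries 0.13, log2 rDNA share 0.003) and PVT1 (only PBS and FWctl -0.022). With libraries left out these set terms ran from -0.058 to 0.037, -0.069 to 0.041 and -0.015 to 0.149. Library size alone moved the median of all genes by 0.105 (log2) in FWatb against FWctl, with 59.6% of calls higher against 47.9%, and raised that share from 60.5% to 83.6% in FWatb against PBS. All genes called in ATB against PBS were 58, with 14 under library size alone, 208 with DESeq2, 111 without a filter, 5 over all libraries, 23 among low-rDNA libraries, 315 with the block and 7 to 93 when a library was left out (7 without PBS replicate 2 or ATB replicate 3, 10 without ATB replicate 4, 11 and 14 without PBS replicates 1 and 3, 31 without ATB replicate 1, 93 without ATB replicate 2). In FWatb against PBS 2035 genes were called, with 1227 over all libraries, 1127 among high-rDNA libraries, 1334 without PBS replicate 2 and 3229 with the block, and for the set 11, with 62 without a filter, 18 with DESeq2, 5 over all libraries and 6 to 19 when a library was left out (6 without PBS replicate 3 or ATB replicate 2, 7 without PBS replicate 2, 19 without FWctl replicate 2). H19 was close to the detection limit in all conditions, and the part of depth in this was not tested.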
